A study of Mus musculus with 2 samples.

Results

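Voltage-gated potassium channels let potassium leave a neuron once its membrane depolarises, and so set how an action potential ends and how soon the next can follow. A channel is a tetramer of pore-forming subunits of the Kcna, Kcnb, Kcnc, Kcnd, Kcnq or Kcnh families, and the Kcnf, Kcng, Kcns and Kcnv genes encode silent subunits that form no current alone but modify those of the Kcnb family. Cytoplasmic Kcnab (Kv-beta) subunits bind Kcna channels, Kcnip (KChIP) calcium sensors bind Kcnd channels, and single-span Kcne subunits bind several families. In the hippocampus, Kcnd2 is known for the dendritic A-type current of pyramidal cells, Kcnq channels for the M-current that restrains repetitive firing, and Kcnc channels for the short spikes of fast-spiking interneurons.

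The members were the genes whose symbols follow the mouse naming pattern of these families and that had at least 1 protein-coding transcript. They came to 52 of 55536 annotated genes, 40 of them pore-forming, silent subunits included, and 12 of them partners. A further 3 matching symbols are antisense genes without a coding transcript and were left out. RNA came from the hippocampus, labelled as a layer of it, of female mice of the strain B6CASTF1/J, an F1 hybrid of C57BL/6J and CAST/EiJ, at 25 days of age, and the labels name no treatment. The labels give 1 group with biological replicates 1 and 2, each made from 300 ng of total RNA with ERCC spike-ins. They list separate biosamples under the same donor entry, so the spread between the libraries need not be that between animals. With 1 group there is no second condition, and every comparison below is between genes, between transcripts or between these libraries, with no p-value.

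The gene tables held 34919989 and 41206890 expected counts for replicates 1 and 2, and the members took 143340 (0.412%) and 160902 (0.392%) of those of annotated genes. Levels are TPM, a length-corrected share of all transcripts of a library, and so can be set side by side between genes. They are means ± SD over both libraries (n = 2) unless each library is named. Nuclear protein-coding genes held only 43.4% and 42.0% of the TPM of the libraries, so TPM values of all of them are lower than in tables of messenger RNA alone. All listed markers of CA1, CA3 and dentate granule cells had at least 1 TPM in both libraries. Of the CA2 markers 3 of 4 did, and Map3k15 was at 0.50 and 0.59 TPM. Cerebellar markers were under 1 TPM, whereas the 4 thalamus markers summed to 46.0 and 33.2 TPM and the 4 striatum markers to 46.1 and 46.3, each of them above 1 TPM in both libraries. Coordinates are on mm10.

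The short stretch of coding sequence for the selectivity filter is what makes these genes potassium channels, and it is printed for 1 member of each pore-forming group to show what they share. A search of the translated coding sequences found 1 filter motif in each of the 40 pore-forming and silent members. Sequences are those of the GENCODE M21 transcripts, from the C57BL/6J reference and not from the hybrid's reads, 5′ to 3′ on the coding strand. Each has a pair of codons followed by the 6 codons of the motif, and the capitals mark the fourth codon of the motif.
Kcna1: atgaccactgtgggaTACggtgac
Kcnb2: atgaccactgtgggcTACggtgac
Kcnc2: atgactaccttaggtTACggggat
Kcnd2: atgacaacactggggTATggcgac
Kcnf1: atgaccacagtgggcTATggtgac
Kcnq3: ctggccaccattggtTATggagac
Kcnh3: ctcaccagtgtgggcTTCggcaac
The Kcna1 stretch lies at chr6:126642225-126642248 on the minus strand, that of Kcnb2 at chr1:15710040-15710063 on the plus strand and that of Kcnc2 at chr10:112456223-112456246 on the plus strand. The Kcnf1 stretch lies at chr12:17175058-17175081 on the minus strand, that of Kcnq3 at chr15:66023728-66023751 on the minus strand and that of Kcnh3 at chr15:99232923-99232946 on the plus strand. In Kcnd2 it is split by an intron between chromosome 6 positions 21217400 and 21714144. The marked codon was TAC or TAT, for tyrosine, in 32 of 32 members outside Kcnh. It was TTC or TTT, for phenylalanine, in 8 of 8 Kcnh members, whose motif also ended in a codon for asparagine and not aspartate.

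Most of these genes were expressed. Of the 52 members, 40 (76.9%) had at least 1 TPM in both libraries, beside 57.6% of nuclear protein-coding genes. In 26 the level was at least 10 TPM in both. The pore-forming members summed to 821 and 737 TPM in replicates 1 and 2, a mean of 779 ± 59.5, and the partners to 564 and 507, a mean of 536 ± 40.2. Among the families reported in full, the order of the summed level was Kcnab (377 ± 34.2), Kcnip (156 ± 5.93), Kcna (125 ± 6.50), the silent subunits (84.7 ± 1.86), Kcnh (77.0 ± 4.91), Kcnd (69.1 ± 5.02) and Kcne (2.95 ± 0.141). No neighbours in that order overlapped between the libraries. Over protein-coding transcripts alone, however, Kcnh (68.0 ± 2.83) and Kcnd (67.0 ± 4.82) did not differ beyond their spread.

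**Figure D1:**
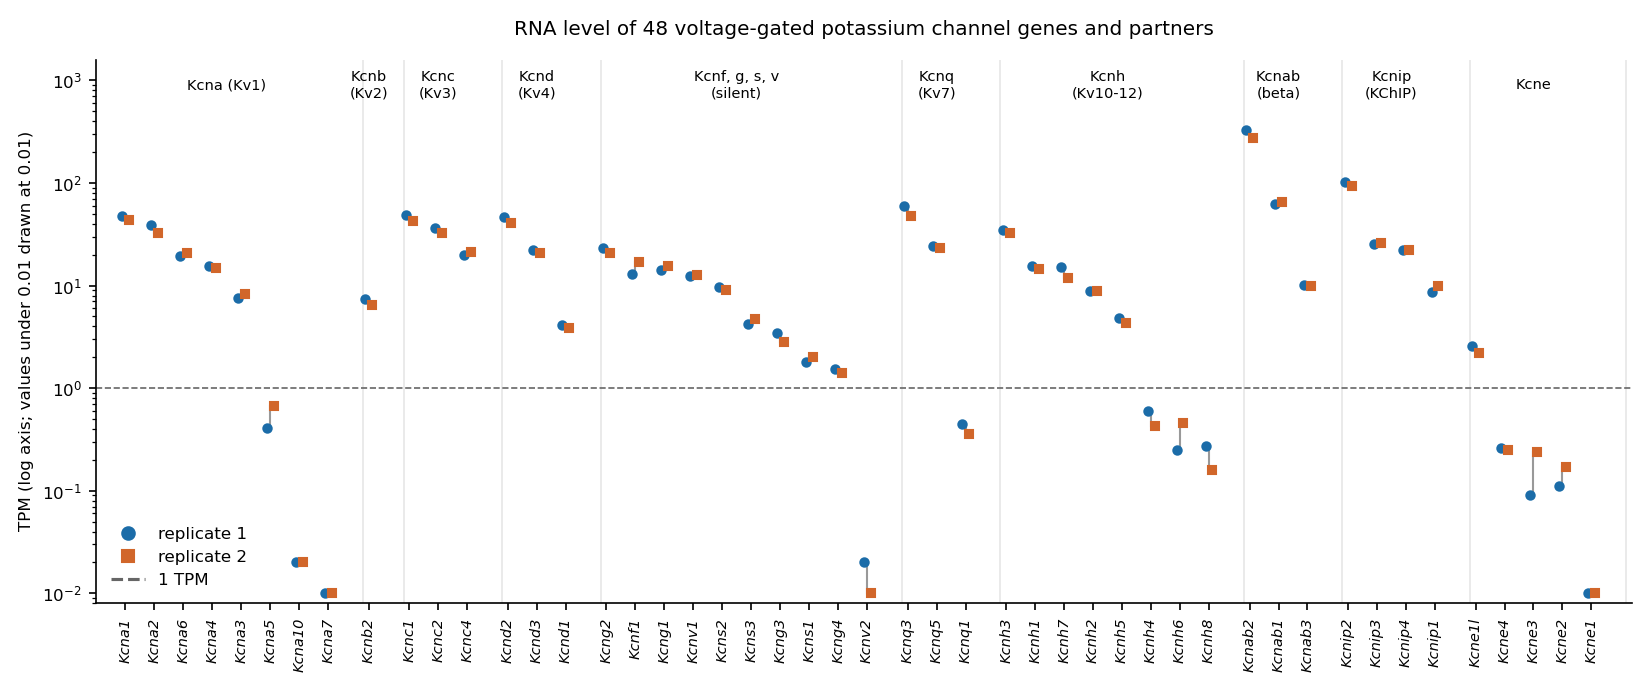
TPM (log axis) of 48 of the 52 members in replicate 1 (blue circles) and replicate 2 (orange squares), by family and in falling order of the mean. In 36 of them both points lie above the dashed line at 1 TPM, and Kcnab2 (328 and 278 TPM) stands at the top.

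The Kcna genes, whose channels sit in axons and set spike threshold and release, were led by Kcna1 (ENSMUSG00000047976.4, chromosome 6, 126640397 to 126646384), the gene of episodic ataxia, at 47.9 and 43.7 TPM. Kcna2 (ENSMUSG00000040724.5, chromosome 3, 107101146 to 107115005), which forms mixed tetramers with Kcna1, was at 39.1 and 32.5 TPM. The libraries of these genes did not overlap, and Kcna1 exceeded Kcna2 by 1.23 and 1.35 times. Kcna6 followed at 19.4 and 20.8 TPM, and Kcna4, the member of the family with fast inactivation, at 15.2 ± 0.417. Kcna3, best known from T lymphocytes and microglia, was at 7.93 ± 0.453 TPM. Kcna5 (0.41 and 0.67 TPM), Kcna10 (0.02 in both, from 1 count in each) and Kcna7 (listed at 0 in both) were under 1 TPM.

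Most Kcna genes lie in clusters, and neighbours within a cluster differed widely. Kcna4 on chromosome 2 and Kcna7 on chromosome 7 lie outside these clusters. On chromosome 3, Kcna3, Kcna2 and Kcna10 lie on the same strand within 160 kb (107036169 to 107195721), and their means were 7.93, 35.8 and 0.02 TPM. On chromosome 6, Kcna5, Kcna1 and Kcna6 share 208 kb (126532551 to 126740674), with means of 0.54, 45.8 and 20.1 TPM. Each cluster thus held a member at over 30 TPM and another at under 1. In 7 of the 8 Kcna genes the whole protein is encoded by a single coding exon, as in the 5 Kcne genes and in the silent subunits Kcnf1, Kcns2 and Kcns3.

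The Kcnb genes encode the delayed rectifiers of cell bodies and proximal dendrites, and Kcnb2 was at 7.48 and 6.51 TPM. Of 10 silent genes, 9 were detected, and no single one dominated. Kcng2 (ENSMUSG00000059852.7, chromosome 18, 80294546 to 80364254) was at 23.2 and 20.6 TPM, Kcnf1 (ENSMUSG00000051726.6, chromosome 12, 17172100 to 17176888) at 12.8 and 17.1, Kcng1 at 14.8 ± 0.849 and Kcnv1 at 12.7 ± 0.205. Kcns2 had 9.33 ± 0.354 TPM, Kcns3 4.44 ± 0.354, Kcng3 3.12 ± 0.431, Kcns1 1.92 ± 0.156 and Kcng4 1.47 ± 0.099. Kcnv2, a gene of retinal photoreceptors, was at 0.02 and 0.01 TPM. The silent genes summed to 83.3 and 86.0 TPM, and to 70.5 and 68.9 without Kcnf1, so the direction between the libraries rests on that gene.

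The Kcnc genes encode channels that open at high voltage and close fast. Kcnc1 was at 48.5 and 42.6 TPM, Kcnc2 at 36.8 and 32.3, and Kcnc4, which carries fast inactivation, at 19.7 and 21.3. Their order was the same in both libraries, with no overlap between neighbours.

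Among the Kcnd genes, the A-type channels of dendrites, Kcnd2 (ENSMUSG00000060882.5, chromosome 6, 21215503 to 21729805) was at 46.2 and 41.0 TPM. Kcnd3 was at 22.4 and 20.7 TPM and Kcnd1 at 3.98 ± 0.191. Kcnd2 exceeded Kcnd3 by 2.06 and 1.98 times, so their ratio moved little between libraries.

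Of the Kcnq genes, Kcnq3 (ENSMUSG00000056258.9, chromosome 15, 65986387 to 66286642), an M-current subunit, was at 60.2 and 47.3 TPM. Kcnq5, a further subunit of neuronal M-channels, was at 24.1 and 23.3 TPM, below Kcnq3 in both libraries. Kcnq1, the cardiac member, was at 0.45 and 0.36 TPM.

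The Kcnh family was led by Kcnh3 (ENSMUSG00000037579.7, chromosome 15, 99224861 to 99242817), a forebrain channel of the Elk branch, at 35.0 and 32.9 TPM. Kcnh1, of the Eag branch, was at 15.4 and 14.5 TPM. The Erg branch was represented by Kcnh7 at 13.6 ± 2.38 TPM and by Kcnh2, the gene of an inherited long-QT syndrome, at 8.86 ± 0.0495. Kcnh5, the other Eag gene, was at 4.54 ± 0.375 TPM. Kcnh4 (0.60 and 0.43), Kcnh6 (0.25 and 0.46) and Kcnh8 (0.27 and 0.16) were under 1 TPM, so each branch had at least 1 member above 8 TPM and 1 much lower.

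Among the pore-forming genes reported here, neighbours in the order of the levels often overlapped. Kcnq3 (53.8 ± 9.07) overlapped with Kcna1 and Kcnc1. Kcna1 (45.8 ± 3.03), Kcnc1 (45.5 ± 4.16) and Kcnd2 (43.6 ± 3.64) did not differ beyond their spread. Kcna2 (35.8 ± 4.71), Kcnc2 (34.5 ± 3.21) and Kcnh3 (34.0 ± 1.51) overlapped with one another as well. Of the genes from Kcnq5 down to Kcna6, Kcng2, Kcnd3, Kcnc4 and Kcna6 lay between 20.1 and 21.9 TPM and were likewise inside their spread.

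Of the partner genes, Kcnab2 (ENSMUSG00000028931.11, chromosome 4, 152390742 to 152477871), encoding the main Kv-beta subunit of brain, was the highest of all 52 members. It reached 328 and 278 TPM, above 99.4% of nuclear protein-coding genes. Kcnab1, whose product can make Kcna channels inactivate, was at 62.9 and 65.5 TPM, and Kcnab3 at 10.1 ± 0.240. The 3 Kcnab genes together stood at 3.09 and 2.92 times the summed Kcna genes that their products bind. In the second deposited quantification that ratio was 3.48 and 3.93. These are RNA levels and give no ratio of proteins.

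The KChIP genes were led by Kcnip2 (ENSMUSG00000025221.15, chromosome 19, 45791839 to 45816061), which raises the surface level of Kcnd channels, at 103 and 93.4 TPM. Kcnip3, also called DREAM or calsenilin, was at 25.5 and 26.0 TPM, Kcnip4 at 22.4 in both libraries and Kcnip1 at 9.23 ± 0.841. The 4 genes summed to 2.20 and 2.31 times the Kcnd genes. Dpp6 and Dpp10, the dipeptidyl-peptidase-like subunits of the same channels, are named outside the pattern and together had 1.64 and 1.79 times the Kcnd level. Dpp6 was at 109 and 103 TPM, and Dpp10 at 10.3 and 14.7.

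The Kcne genes were close to absent. Kcne1l, an X-linked relative also called Kcne5, was at 2.59 and 2.19 TPM and was the one detected member of 5. Kcne4 was at 0.26 and 0.25 TPM, Kcne3 at 0.09 and 0.24, Kcne2 at 0.11 and 0.17, and Kcne1, the cardiac partner of Kcnq1, was listed at 0 in both. Kcne2 is a marker of choroid plexus epithelium. Of 6 other choroid plexus markers, 2 had at least 1 TPM in both libraries, Ttr at 23.5 and 55.1 TPM and Kl at 3.43 and 3.38. Folr1, Clic6, Slc4a5 and Aqp1 were each under 1 TPM in both, and the list summed to 27.7 and 60.1 TPM, nearly all of it Ttr. Kcne2 rested on 4 and 8 counts, too few to read a difference from.

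**Figure D2:**
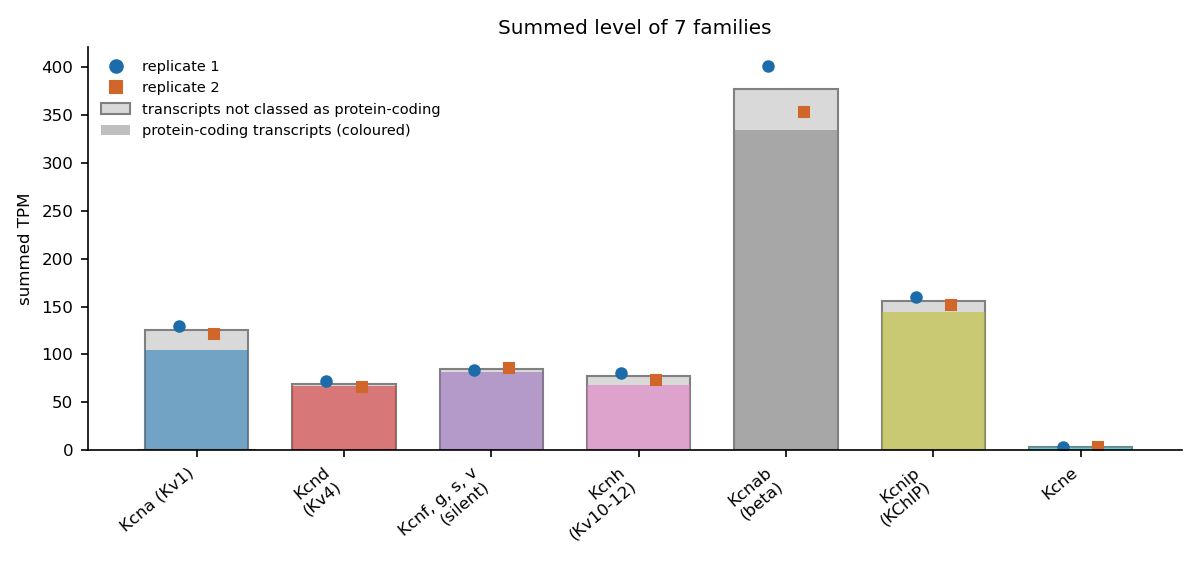
Summed TPM of 7 families, with bars for the mean of both libraries, coloured up to the share of protein-coding transcripts and grey above it, and points for replicate 1 (circles) and replicate 2 (squares). Kcnab has the tallest bar of those drawn (377), and Kcne is near 0 (2.95).

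Proteins outside the naming pattern that bind, anchor or regulate these channels were read from a list of 29 genes, of which 27 had at least 1 TPM in both libraries. Among the highest were the calmodulin genes Calm3 (1007 ± 23.6) and Calm2 (917 ± 7.52), which serve Kcnq channels among many other targets. Also high were Snap25 (796 ± 28.7), a release protein that binds Kcnb channels, the scaffold gene Dlg4 (364 ± 22.8) and Ank3 (188 ± 33.8), whose product ankyrin-G holds Kcnq channels at the axon initial segment. Lgi1, a secreted protein that acts on Kcna1 channels, was at 76.1 ± 3.81 TPM over all its transcripts, 1.64 and 1.68 times Kcna1. Over coding transcripts alone it was at 0.445 and 0.485 times Kcna1, so much of its level was in transcripts not classed as coding. Amigo1, an auxiliary subunit of Kcnb channels, was at 28.0 ± 1.21 TPM. Amigo3 (0.80 and 0.91) and Kcnrg (0.39 and 0.31) were under 1 TPM.

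Other potassium channel families gave lower sums than the pore-forming members. The 15 Kcnj genes of inward rectifiers summed to 214 ± 16.8 TPM, led by Kcnj6 at 46.6 ± 8.91. The 8 genes of calcium-activated channels and their relatives had 154 ± 16.1, led by Kcnma1, the BK channel, at 54.9 ± 6.81. The 14 two-pore Kcnk genes had 92.9 ± 6.20, led by Kcnk1 at 34.2 ± 1.03. These sums depend on how many genes each list has.

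Which transcript carried the level was read from the deposited share of each gene's TPM. The 52 members have 197 annotated transcripts, 136 of them protein-coding. Of the 40 members with a mean of at least 1 TPM, 39 were led by a protein-coding transcript, beside 93% of nuclear protein-coding genes at that level. Of the 33 with a choice of transcripts, 30 had the same leader in both deposited quantifications, beside 76.3% of such genes. In the first quantification, that of the deposited shares, the leader was the same in both libraries in 32 of the 33. Protein-coding transcripts held 88.6% and 90.2% of the members' TPM, against 83.7% and 85.7% over all nuclear protein-coding genes.

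**Figure D3:**
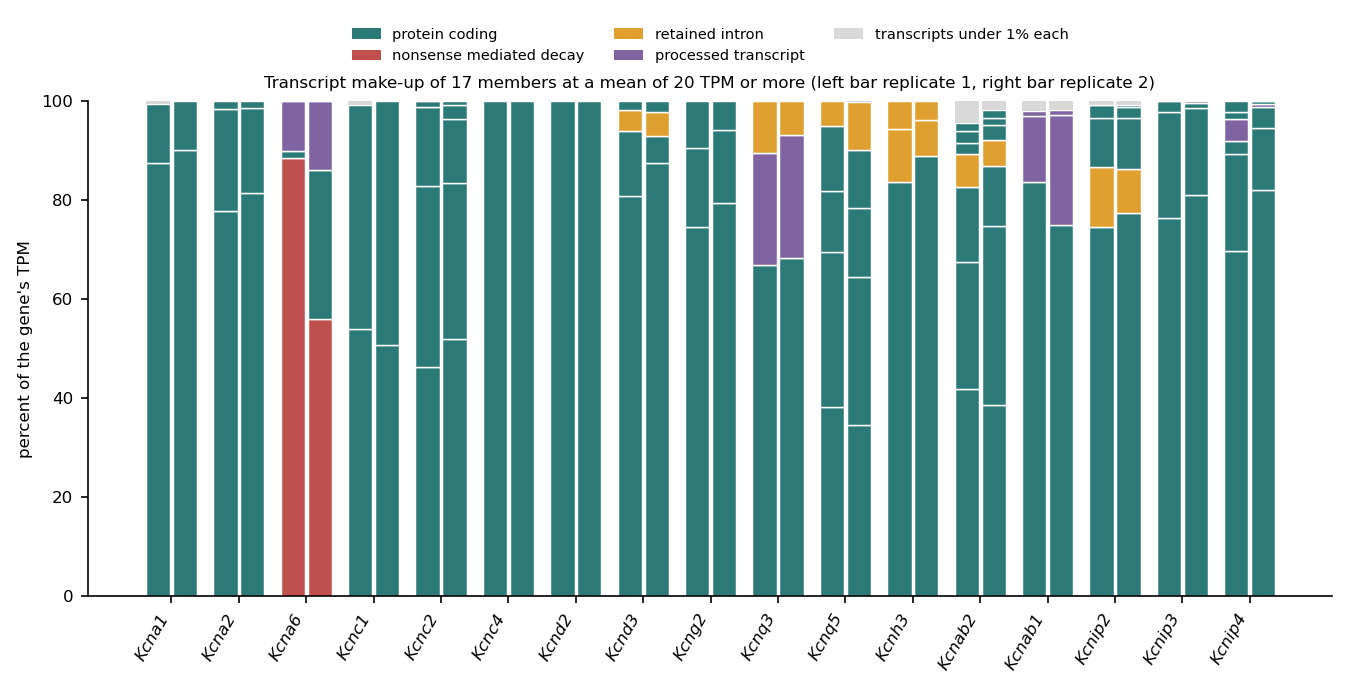
Percent of each gene's TPM taken by its transcripts in replicate 1 (left bar) and replicate 2 (right bar) for 17 of the 20 members with a mean of at least 20 TPM, coloured by annotated class. Green protein-coding blocks fill most bars, and Kcna6, with a transcript of the nonsense-mediated decay class at 88.5% and 55.9% in these tables, is the exception.

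Several high members had a single form of the protein. Kcnd2 and Kcnc4 have 1 annotated transcript each. In Kcna1 and Kcna2 the leading transcripts differed in length but not in coding length. Kcna1-201 (88.8 ± 1.90%) and Kcna1-202 (10.9 ± 1.46%) both encode 1485 bases. In Kcna2, Kcna2-201 of 11582 bases held 79.6 ± 2.45% and Kcna2-202 of 2430 bases 18.8 ± 2.26%, each with 1497 coding bases. Kcna2-202 was at 0% in the second quantification, so its share is uncertain.

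Kcna6 stood out in its annotation. Its leader in the deposited shares, Kcna6-201, is classed as a target of nonsense-mediated decay and took 88.5% and 55.9%, while Kcna6-204, classed as protein-coding, took 1.35% and 30.1%. These transcripts are 5827 and 5836 bases long with the same 1587 coding bases. The split between such near-identical models differed between the libraries by more than that of any other leading transcript named here. In the second quantification it went the opposite way, with Kcna6-201 at 36.3% and 81.4% and Kcna6-204 at 45.1% and 10.4%. By mean share Kcna6-201 led in both quantifications, at 72.2% and 58.9%, and the counts of leaders above use that mean. Kcna6-204 came first in replicate 1 of the second quantification, so the leader in a single library is uncertain.

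Alternative coding segments were the form of variety in which the libraries could be compared directly. In 5 genes a pair of coding transcripts that differ by 1 coding segment held much of the level, and those segments are printed to show what is gained or lost. Capitals mark the alternative segment, and the lower-case bases are 9 coding bases on either side, 5′ to 3′ on the coding strand.
Kcnh1: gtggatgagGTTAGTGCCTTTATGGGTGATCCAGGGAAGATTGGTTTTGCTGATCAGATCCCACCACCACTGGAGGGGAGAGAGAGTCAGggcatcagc
Kcnd3: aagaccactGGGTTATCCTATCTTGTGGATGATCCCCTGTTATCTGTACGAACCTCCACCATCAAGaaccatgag
Kcnq5: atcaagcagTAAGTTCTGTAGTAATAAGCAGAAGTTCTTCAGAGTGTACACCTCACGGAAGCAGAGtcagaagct
Kcnip2: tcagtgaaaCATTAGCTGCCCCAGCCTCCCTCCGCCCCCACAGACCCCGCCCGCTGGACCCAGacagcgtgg
Kcnab2: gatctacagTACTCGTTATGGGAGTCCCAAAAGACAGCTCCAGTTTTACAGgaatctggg
The shares below are the TPM of coding transcripts that contain the segment, as a percent of all coding transcripts that span it. The Kcnh1 segment has 81 bases (chr1:192277091-192277171, plus strand) and was in 53.8% of Kcnh1 in replicate 1 and 43.7% in replicate 2. Its presence or absence was therefore near even, and in the first quantification Kcnh1 was the one member whose leading transcript changed between libraries. For this segment the second quantification gave 55.4% and 44.1%, and there the leaders of Kcnc1 and Kcna6 changed between libraries as well.

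The Kcnd3 segment has 57 bases (chr3:105666962-105667018, plus strand) and was in 15.8% and 8.0% of Kcnd3. The form without it prevailed in both libraries, and the second quantification gave 18.6% and 10.1%. The Kcnq5 segment, also of 57 bases (chr1:21461551-21461607, minus strand), was in 32.9% and 33.1%, and in 28.3% and 24.6% in the second quantification. Kcnq5 had no transcript above 40%, since Kcnq5-201 held 36.4 ± 2.56% and Kcnq5-203, with the segment, 30.5 ± 0.962%.

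The Kcnip2 segment has 54 bases (chr19:45796279-45796332, minus strand) and was in 85.4% and 85.2%. In the second quantification it was in 91.3% and 92.4%. The longer form, Kcnip2-209 with 810 coding bases, held 75.9 ± 1.90% of the gene and Kcnip2-202 with 756 coding bases 10.1 ± 0.438%. In the second quantification their mean shares were 65.9% and 4.16%, and Kcnip2-206, at 0.165% in the first, held 16.3%. The Kcnab2 segment has 42 bases (chr4:152434782-152434823, minus strand) and was in 50.1% and 54.7%. In the second quantification it was in 87.1% and 78.6%, and the leader was Kcnab2-207, with the segment, in place of Kcnab2-201, without it. The balance of the Kcnab2 forms therefore depends on the quantification, while the high level of the gene does not.

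Kcnc1 had a pair of coding ends in near-equal amounts. Kcnc1-201 (1533 coding bases) held 54.0% and 50.7%, and Kcnc1-203 (1755 coding bases) 45.3% and 49.4%. The coding sequences are the same over 1504 bases and then part, as shown here from 12 shared bases in lower case into the bases of each form in capitals.
Kcnc1-201: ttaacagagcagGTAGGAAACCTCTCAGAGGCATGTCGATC
Kcnc1-203: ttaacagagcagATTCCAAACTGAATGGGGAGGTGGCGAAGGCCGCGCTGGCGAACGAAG
Kcnc1-201 has 29 bases of its own, all shown, and Kcnc1-203 has 251, of which the first 48 are shown. The second quantification put Kcnc1-203 first, at 50.1% against 49.9%.

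In most other high members 1 coding transcript held most of the level. Kcnh3-201 held 86.2 ± 3.73% of Kcnh3 and Kcng2-201 77.0 ± 3.33% of Kcng2. Kcnc2 was an exception, split between Kcnc2-201 (49.2 ± 3.93%) and Kcnc2-204 (34.0 ± 3.50%), with 1926 and 1917 coding bases. In the second quantification these held 47.6% and 27.7%, and Kcnc2-202, at 0.385% in the first and with 720 coding bases, held 20.8%. Kcnip3-203 held 78.7 ± 3.26% of Kcnip3 and Kcnip4-201 75.9 ± 8.68% of Kcnip4. The noncoding Kcnip3-204, at 0.255%, held 26.9% in the second quantification. Kcnab1-201 held 79.3 ± 6.13% of Kcnab1, but 50.5% in the second quantification, where the noncoding Kcnab1-203 held 44.2%. Kcnd3-202 held 84.0 ± 4.74% of Kcnd3.

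Short noncoding transcripts weighed on a few gene levels, since few reads on a short model give a high TPM. Kcnq3-202, of 666 bases, took 22.5% and 24.8% of the TPM of Kcnq3 from 185 and 200 counts, whereas Kcnq3-201, of 11824 bases, took 66.9% and 68.2% from 11351 and 11378 counts. Over coding transcripts alone Kcnq3 was at 36.3 ± 5.61 TPM and ranked 6 of the 40 pore-forming members, not 3. Kcnab1-203, of 534 bases, took 13.3% and 22.3% of Kcnab1 from 87.3 and 191 counts. In each of the 10 families the highest member was the same over coding transcripts alone.

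**Figure D4:**
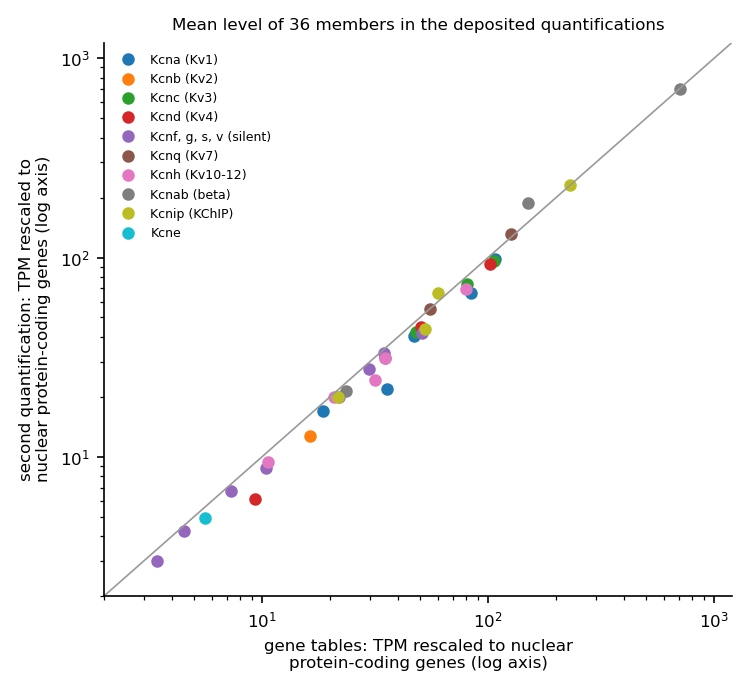
Mean level of 36 of the 40 members with at least 1 TPM in the gene tables (x) and in the second quantification (y), both as TPM rescaled to the total of nuclear protein-coding genes on log axes, coloured by family, with the line of equality. The points follow the line, with Kcnab2 at the top (709 and 699) and Kcna4 (35.7 and 21.9) among the farthest below it.

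The libraries were compared for each member with enough counts. In 39 members the libraries together held 200 expected counts or more. None of these, 0 in either direction, reached a 1.5-fold difference between the libraries. Of the 12962 annotated genes with such counts, 3.33% were lower by that fold in replicate 2 and 0.555% were higher. Shares that small come to few genes among 39, so 0 does not set the members apart from those annotated genes. Kcnh7 (15.3 and 11.9 TPM) and Kcnq3 (60.2 and 47.3 TPM) were in replicate 2 at 0.8 times their replicate 1 level or less, beside 13.1% of those genes. Kcnf1 (12.8 and 17.1 TPM) was the one member past the same fold upward, beside 2.38%.

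The Kcnf1 difference was the widest upward. Its ratio was 1.33, with a 95% counting interval of 1.249 to 1.424, and it was 1.42 by TMM-scaled counts and 1.38 in the second quantification. It rested on 1448 and 2410 counts. In bulk tissue, more cells of a type and more RNA per cell cannot be told apart, here or for any other difference between the libraries. Dpp10, from the list of 29 partners outside the naming pattern, moved the same way, with a ratio of 1.43. Most of that list did not, since 19 of its 27 genes with a ratio were lower in replicate 2.

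On the log2 scale, the ratio of the second library to the first had a median of -0.10 over the 39 members and -0.07 over nuclear protein-coding genes. Of the members 27 (69.2%) were lower in replicate 2, as were 64.4% of nuclear protein-coding genes. With TMM factors the medians were -0.012 and 0.028, and 21 members were lower, beside 42.9% of nuclear protein-coding genes. The 32 pore-forming members had a median of -0.12 with 23 lower, and the 7 partners a median of 0.00 with 4 lower. The summed markers of cell types and regions went both ways. Among those lower in replicate 2 were thalamus, excitatory neuron (2981 and 2670), astrocyte (1137 and 1051) and CA3 markers (115 and 100). Among those higher were interneuron (430 and 453), CA2 (170 and 176) and oligodendrocyte markers (1870 and 1907). Genes within a list did not all move together. Sst was higher (168 and 197), whereas 2 of the 6 interneuron genes were lower, Gad1 (136 and 127) and Npy (61.15 and 59.16). Of the CA2 genes, Pcp4 was higher (118 and 127) and Rgs14 lower (43.2 and 39.9). Of the 4 astrocyte genes 2 were lower, Slc1a2 (839 and 744) and Aqp4 (54.6 and 51.4). Gfap (120.5 and 130.2) and Gja1 (123 and 126) were higher. The part of cell types or regions in the member ratios was not tested.

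Kcnab2 shows how the scale matters. Its TPM ratio was 0.846, whereas its TMM-scaled count ratio was 0.975 and its ratio in the second quantification 1.09. The effective length of the gene, an average over its transcripts, was 2804 bases in replicate 1 and 3042 in replicate 2. No direction can be given for it.

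**Figure D5:**
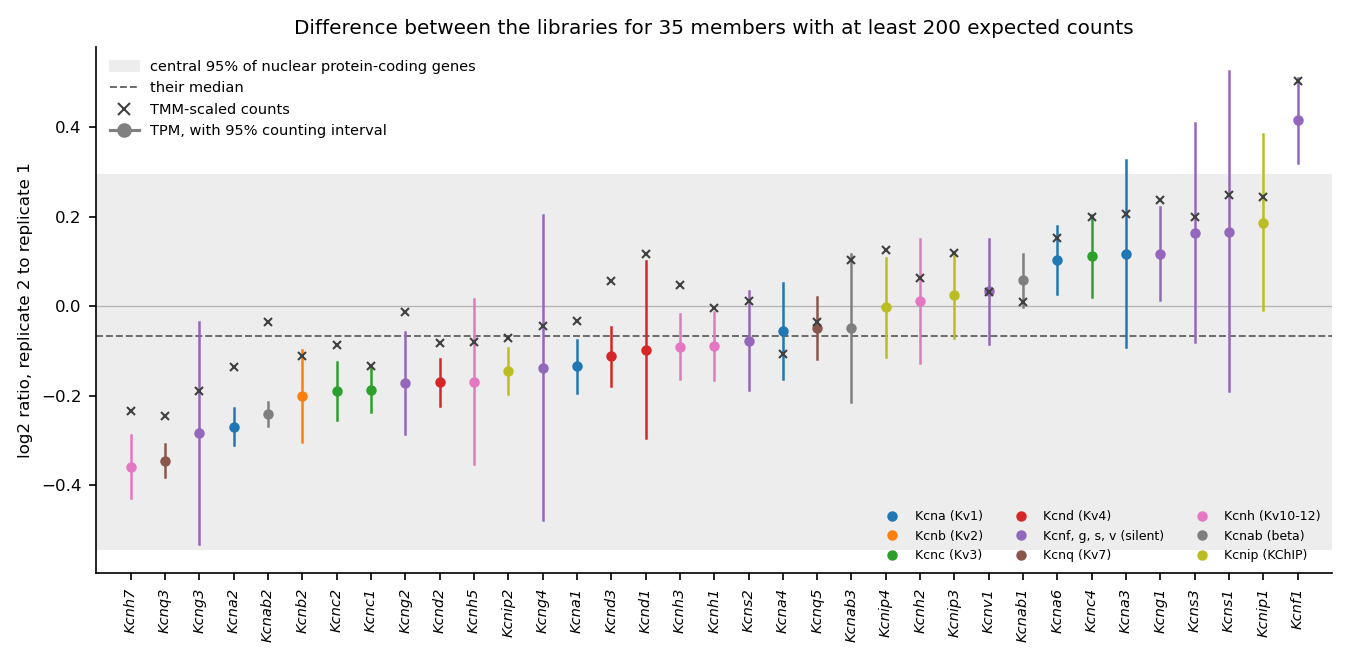
Log2 ratio of replicate 2 to replicate 1 for 35 of the 39 members counted often enough, as TPM (points coloured by family, with 95% counting intervals) and as TMM-scaled counts (crosses), beside the central 95% of nuclear protein-coding genes (grey band) and their median (dashed line). All points but Kcnf1 (0.42) lie inside the band, and most crosses lie above their points.

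Retained-intron transcripts were a smaller share of the members' TPM in replicate 2, at 5.52% and 4.34%. Of 7 members with 200 retained-intron counts or more, 6 had a lower share in replicate 2, and so had 83.5% of 2528 nuclear protein-coding genes. Kcnip2 went from 12.1% to 8.9% and Kcnq3 from 10.6% to 7.0%. Kcnv1 went the other way, from 22.6% to 29.9%. The members thus followed the difference between the libraries seen over all genes.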

How the data were processed

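Total RNA libraries of mouse hippocampus, stranded and depleted of ribosomal RNA with ERCC spike-ins added, were sequenced, per the labels. For each library the authors deposited gene and transcript tables with expected counts, TPM and the percent of a gene's TPM held by each transcript, in the RSEM column format. Estimated counts and TPM of a second quantification, in kallisto's column format, were also deposited per transcript. Genes are on mm10 (per the labels) in the GENCODE M21 annotation (per the deposited notes). For aligner and tool versions, nothing was found: not given in the sources used here.

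TPM was used as deposited. Detection needed 1 TPM in both libraries. Ratios used genes with 200 or more expected counts in the libraries together, with a floor of 3 counts, and exact Clopper-Pearson 95% intervals that cover counting error only. Expected counts were rounded to whole numbers for the TMM factors of edgeR 4.0.16 and the size factors of DESeq2 1.42.0. Second-quantification levels were summed over each gene's transcripts and, where said, rescaled to the total of nuclear protein-coding genes. Coding sequences were cut from the M21 transcripts with the annotation's coding intervals and translated to find the filter motif, threonine or serine, then valine, isoleucine or leucine, glycine, tyrosine or phenylalanine, glycine, and aspartate or asparagine. The alternative segments were chosen after transcript shares were seen. Tables were made with pandas 2.3.3 and numpy 2.4.6 in Python 3.11.15, intervals with scipy 1.17.1, figures with matplotlib 3.10.9, and factors in R 4.3.3. Simulated counts with known changes were used to check the library ratios. The members and lists were chosen with earlier results of these data known. The text names the 2 highest members of each family and those with a mean of at least 20 TPM with both libraries, gives transcripts for the latter, names members under 1 TPM, and takes the 6 highest listed partners and those under 1 TPM. Kcnf1, Kcnh7, Dpp6, Dpp10, Lgi1 and Amigo1 were singled out after their values were seen. Alternatives were the second quantification, rescaling, TMM, DESeq2 and spike-in scaling, other minimums, pseudocounts and folds, coding transcripts alone and each library alone. Values of some members and partners that this rule names, and the sums of their families, are not reported here.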

Additional observations from a re-analysis of the deposited data

How the results depend on the processing

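The number of detected members lay between 39 and 41 under every alternative run except a minimum of 2 TPM (37), and the highest member of each of the 10 families was the same under every alternative run. The summed levels depend on what TPM is scaled to. The pore-forming sum was 1217 TPM in the second quantification, 1824 rescaled over nuclear protein-coding genes, 1651 in the second quantification rescaled and 694 over protein-coding transcripts only, and 737 to 821 in the single libraries. The partner sum was 941, 1254, 1276 and 482 in that order, and 507 to 564 in the single libraries. The rescaled second quantification and the sums over protein-coding transcripts only were chosen after seeing the data. The median log2 ratio of the members was -0.040 in the second quantification, -0.051 rescaled, -0.012 with TMM factors, -0.012 with DESeq2 size factors, -0.21 scaled to spike-ins, -0.11 with a minimum of 20 counts, -0.12 over coding transcripts only and -0.084 on log2(TPM + 1), against -0.10. Spike-in scaling put the median of nuclear protein-coding genes at -0.17, and the median of the members minus that of those genes was -0.041 with it, -0.030 as TPM and -0.095 over coding transcripts only. Members at least 1.5-fold lower in replicate 2 numbered 1 in the second quantification and 1 with a minimum of 20 counts (Kcnh8), and 2 at 0.8 times or less (Kcnh7 and Kcnq3). Those at least 1.5-fold higher numbered 2 with a minimum of 20 counts (Kcna5 and Kcnh6), 1 over coding transcripts only (Kcna6) and 1 past the inverse of that lower limit (Kcnf1). Kcnh7 and Kcnq3 stayed above 0.8 times with TMM factors, with DESeq2 size factors and with rescaled TPM. No paired analysis was possible because there is 1 group. Members with few counts are limited by depth, and Kcna10, Kcnv2, Kcne3 and Kcne2 rested on 12 counts or fewer. Kcna7 and Kcne1 had 0 counts in both libraries.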

Other observations

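The antisense genes that share the naming pattern but have no coding transcript were measured too. Kcnq1ot1, the long antisense RNA inside Kcnq1 (chromosome 7, 143203458 to 143296549, minus strand), was at 2.59 and 1.38 TPM from 5791 and 3845 expected counts, while Kcnq1 itself had 17 and 27 counts. Kcnd3os was at 1.90 and 1.53 TPM from 33 and 32 counts. Kcnab3os was at 0.18 TPM in replicate 1, from 2 counts, and listed at 0 in replicate 2.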
